A study of Mus musculus with 4 samples.

Results

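The genes described here are 42 mouse genes whose products build the mitotic spindle, hold and separate chromosomes, or start and end mitosis. They were taken by gene name from the probes of an Agilent expression array, and all 42 were found among the 28146 gene names on it. The 42 genes have 77 probes, and the probe with the highest mean signal was used for each, with the other probes compared separately. Each of these 42 probes was well above background on all 4 arrays.

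RNA came from 2 stable lines of EPH-4, a non-malignant mouse mammary epithelial cell line. EV-50 carries the empty H1-2 vector, and shGR-19 carries the same vector with a short hairpin RNA against the glucocorticoid receptor (GR), which is encoded by Nr3c1. Both lines also carry the pBABE-puro marker and were grown without serum or added glucocorticoid, in DMEM/F-12 with 2 µg/mL puromycin. Each line is a single clone, so a difference between the lines cannot be told apart from a difference between clones. There were 2 arrays per line, each made from 300 ng RNA labelled with Cy3, and nothing in the labels says that the duplicates were separate cultures. The p-values therefore measure only the spread between these arrays, which may be technical.

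Mitosis begins when cyclin-dependent kinase 1 is activated by CDC25 phosphatases, with Polo-like and Aurora kinases acting beside it. Kinetochores, built on centromeres, attach chromosomes to spindle microtubules, and the spindle assembly checkpoint holds back the anaphase-promoting complex until every kinetochore is attached. The complex then marks securin for destruction, which frees separase to cut the cohesin that joins sister chromatids. Most of these genes are transcribed mainly in late S, G2 and M phase, so that in bulk RNA a smaller share of dividing cells and less transcript per dividing cell cannot be told apart.

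Promoters of late cell cycle genes often carry a CCAAT box and a cell cycle genes homology region, commonly TTTGAA, which lies near the transcription start. RefSeq promoter windows on GRCm38.p6, from 250 bases before to 50 after the start, were at hand for 35 of the 42 genes. CCAAT, searched on both strands and so also as ATTGG, was present in 25 of the 35, or 71.4%, against 41.1% of 27025 genes with such a window. TTTGAA, also searched as TTCAAA, was likewise present in 25, or 71.4%, against 20.2% of all genes. Both motifs occurred together in a window for 22 of the 35, or 62.9%, against 7.97%. Another form, TTTAAA, was found in 9, or 25.7%, against 14.9%. The motifs are short, neither contains the other, and a match is a description of the letters only. The windows below run from 100 bases before to 20 after the start, 5′ to 3′ along the gene, with CCAAT and TTTGAA on either strand in capitals. They were chosen from windows that hold both motifs within these narrower limits, in genes whose RNA differed between the lines by unlike amounts. Other genes counted above with both motifs have a motif only outside these limits. Examples are Aurka, with TTTGAA at position 32 from the start, and Ncapg, with CCAAT at -176. The printed windows therefore do not stand for all of these genes.
Ttk, chr9:83834589-83834708, plus strand: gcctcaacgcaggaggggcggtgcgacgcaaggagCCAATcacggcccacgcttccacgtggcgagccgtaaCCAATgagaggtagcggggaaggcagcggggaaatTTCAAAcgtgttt
Espl1, chr15:102296193-102296312, plus strand: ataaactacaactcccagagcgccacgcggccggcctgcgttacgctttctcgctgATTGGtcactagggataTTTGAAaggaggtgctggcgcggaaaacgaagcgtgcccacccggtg
Prc1, chr7:80294351-80294470, plus strand: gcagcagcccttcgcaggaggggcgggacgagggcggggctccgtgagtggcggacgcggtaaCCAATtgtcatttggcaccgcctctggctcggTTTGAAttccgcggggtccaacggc
Top2a, chr11:99024170-99024289, minus strand: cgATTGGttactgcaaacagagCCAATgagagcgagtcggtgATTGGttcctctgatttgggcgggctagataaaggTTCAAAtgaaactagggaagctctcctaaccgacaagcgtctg
Kif11, chr19:37376282-37376401, plus strand: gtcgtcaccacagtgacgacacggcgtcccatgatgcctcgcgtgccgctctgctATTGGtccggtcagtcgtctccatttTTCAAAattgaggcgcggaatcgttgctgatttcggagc
Cdc20, chr4:118437324-118437443, minus strand: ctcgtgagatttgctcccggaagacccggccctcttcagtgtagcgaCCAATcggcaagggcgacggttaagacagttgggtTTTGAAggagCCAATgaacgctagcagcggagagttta

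The authors deposited 2 sets of values for these arrays, and the sets did not hold the same contrast, so the counts and the genes with the largest differences are given from both, and the other genes from the table with the scanner differences in a plot. Scanner values are log2 intensities minus the 75th percentile of the array, and table values are the deposited log2 values, which were centred on the median of each probe over its 4 columns. On the scanner scale, the SD of the difference over 10586 brighter probes was 0.0806 between the replicate 1 array labelled EV-50 and the replicate 1 array labelled shGR-19, whereas it was 0.518 and 0.624 between arrays carrying the same line label. In the value table, columns of the same line differed with an SD of 0.0965 and 0.0859, and columns of different lines with an SD of 0.444 to 0.453. Across 24436 probes, the shGR-19 minus EV-50 difference between scanner arrays labelled replicate 1 had a correlation of 0.039 with that between the replicate 1 columns of the table, and the replicate 2 pair a correlation of 0.80 with its columns. Nr3c1, whose probe lies at chr18:39570619-39570678 of mm9, had scanner values of 1.81 and 1.92 under the EV-50 label and of 1.46 and -0.034 under the shGR-19 label. Its table values were 0.98 and 0.95 for EV-50 and -0.95 and -0.98 for shGR-19, a difference of -1.94 (SE 0.048, adjusted p = 0.00216), while the scanner difference of -1.15 (SE 0.55) was not called. The table call was lost with any 1 column left out and without the filter on dim probes (adjusted p = 0.0113). The array labelled shGR-19 replicate 1 thus showed little loss of the targeted gene, and counts and medians are given also for the arrays labelled replicate 2 alone. All 6 epithelial markers on the array were well above background on all 4 arrays, as were 3 of 7 mesenchymal, 4 of 6 immune and 0 of 5 endothelial and fat cell markers, and Ptprc and Itgam, which mark leukocytes, were above it on none.

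In the value table, 36 of the 42 mitotic genes had a lower mean in shGR-19 than in EV-50, against 49% of all 24443 probes tested. The median difference over the 42 was -0.30 on the log2 scale, against 0.0087 over all probes, and the genes ranged from -0.97 for Ttk to 0.14 for Cdc20. In 34 of the 42 both shGR-19 columns lay below both EV-50 columns, which was so for 35.3% of all probes, and in 3 both lay above, against 36.6%. limma, with an adjusted p below 0.01, called 5 of the 42, or 11.9%, and all 5 were lower in shGR-19: Espl1, Kif20a, Ncapd2, Smc4 and Kif2c. Over all probes 6.04% were called lower and 5.53% higher, or 11.6% in either direction. None of the 5 passed 2-fold, which with the adjusted p was passed downwards by 2.39% and upwards by 1.87% of all probes. With an adjusted p below 0.05, 25 of the 42 passed, all lower, against 18.2% lower and 18.3% higher among all probes. With an unadjusted p below 0.05, 29 of the 42 were lower, against 23.8% of all probes lower and 48.4% in either direction. The replicate 1 columns alone had 37 of the 42 lower (51.1% of all probes) with a median of -0.30, and the replicate 2 columns alone 36 (47.1%) with a median of -0.32. By the brightest probe of each gene, the differences of the group were thus under 2-fold and mostly of the same sign. limma called 0 of the 42 without the filter on dim probes, and 26 with an intensity trend and robust prior. The share of all probes called with that trend and prior is not given, so the 26 cannot be read as particular to these genes.

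Over all 4 scanner arrays, limma called 0 of the 42 mitotic genes, as it called 0% of the 24441 probes it could fit. With an unadjusted p below 0.05, 0 of the 42 passed, against 0.855% of all probes. The scanner mean was lower on the arrays labelled shGR-19 for 36 of the 42, against 46.4% of all probes, with a median difference of -0.13 against 0.018. Both arrays labelled shGR-19 lay below both labelled EV-50 for 6 of the 42, against 6.15% of all probes. The array labelled shGR-19 replicate 2 was the lowest of the 4 for 34 of the 42 genes, against 32.1% of all probes, and without it the median difference was 0.073. Between the arrays labelled replicate 2, 38 of the 42 were lower in shGR-19, against 48.2%, with a median of -0.34 against 0.015. Between those labelled replicate 1, 15 of the 42 were lower, against 40.4%, with a median of 0.014 against 0.026. Within the array pairs carrying the same line label, replicate 2 minus replicate 1 was also taken. The median over the 42 was -0.50 for the shGR-19 arrays, against -0.061 over all probes, and -0.056 for the EV-50 arrays, against -0.033.

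**Figure D1:**
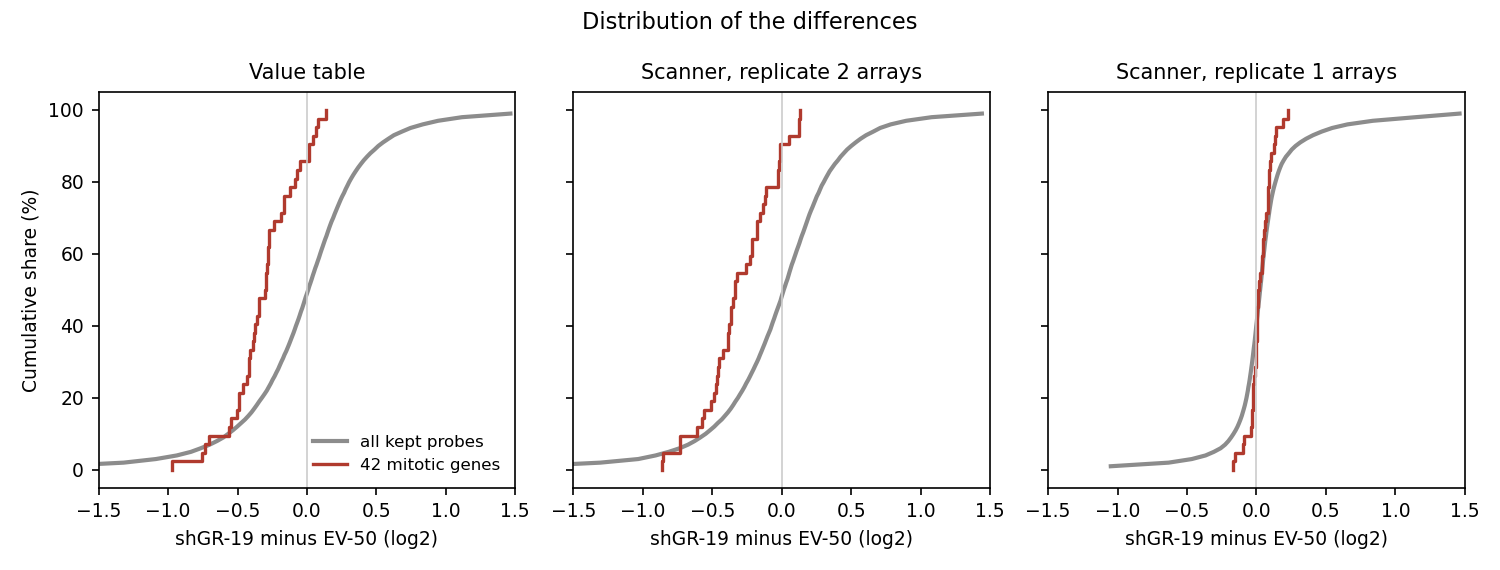
Cumulative share of the 42 mitotic genes (red steps) and of all kept probes (grey line) against the shGR-19 minus EV-50 difference on the log2 scale, in the value table, between the scanner arrays labelled replicate 2 and between those labelled replicate 1. The red line crosses its midpoint at -0.30 and -0.34 in the first panels and at 0.014 in the last, and the grey line near 0 in all panels.

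Among the kinases and phosphatases, none of 6 was called in the value table and 3 passed an adjusted p of 0.05. For this and each later role, the shares over all probes were 11.6% called, with 18.2% lower and 18.3% higher at 0.05. Of the 42 genes together 11.9% were called, so the calls are not read as particular to a role. Plk1, which encodes the Polo-like kinase needed for centrosome maturation and mitotic entry, had table values of 0.30 and 0.21 for EV-50 and of -0.21 and -0.21 for shGR-19. These did not overlap, and their difference was -0.46 (SE 0.056, adjusted p = 0.0131). On the scanner arrays Plk1 read 4.85 and 4.37 for EV-50, and 4.86 and 3.90 for shGR-19. The array labelled shGR-19 replicate 2 was the lowest, and the arrays labelled replicate 1 differed by 0.0033. Cdc25c and Cdc25b, whose phosphatases activate cyclin-dependent kinase 1, had table differences of -0.38 (adjusted p = 0.0364) and -0.34 (adjusted p = 0.0163). Aurkb, the kinase of the chromosomal passenger complex, had -0.30 with an SE of 0.15, its EV-50 columns being far apart at 0.42 and 0.049. Plk4, which drives centriole duplication, had -0.17 in the table but 0.13 between the scanner arrays labelled replicate 2. The difference for Aurka, the centrosomal Aurora kinase, was -0.070, smaller than its SE of 0.078.

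The 5 spindle assembly checkpoint genes spread most widely, from -0.97 to 0.081 in the table, and 4 passed an adjusted p of 0.05 without any passing 0.01. Ttk encodes the MPS1 kinase that starts checkpoint signalling at unattached kinetochores. Its table values were 0.38 and 0.44 for EV-50, and -0.38 and -0.74 for shGR-19. The lines did not overlap, but the shGR-19 columns lay 0.36 apart, and the difference of -0.97 (SE 0.15, 1.97-fold lower) had an adjusted p of 0.0191. Scanner values for Ttk were -1.31 and -1.25 for EV-50, and -1.34 and -2.10 for shGR-19. Only the last stood apart from the other three. Mad2l1, which encodes the MAD2 inhibitor of CDC20, had table values of 0.23 and 0.37 for EV-50 and of -0.28 and -0.23 for shGR-19, a difference of -0.55 (SE 0.073, adjusted p = 0.0156). On the scanner arrays it read 2.68 and 2.43, then 2.71 and 1.85, again lowest on shGR-19 replicate 2. Bub1 and Bub1b, the checkpoint kinase and pseudokinase, had table differences of -0.35 and -0.28. Bub3, the WD-repeat partner of both, differed by 0.081 (adjusted p = 0.327).

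The 4 genes grouped under the anaphase-promoting complex and separase encode separase, securin and 2 partners of the complex, but none of its subunits. Of these 4, 1 was called and 2 passed an adjusted p of 0.05, with a median table difference of -0.38. Subunits of the complex were among the other mitotic genes described below, with table differences from -0.21 for Cdc23 to 0.52 for Cdc26. Espl1, which encodes separase, had table values of 0.34 and 0.41 for EV-50 and of -0.34 and -0.42 for shGR-19. It was 1.69-fold lower in shGR-19, a difference of -0.75 (SE 0.062, adjusted p = 0.00701). The scanner arrays gave 2.79 and 2.86 for EV-50, with 3.01 and 2.12 for shGR-19. Here the array labelled shGR-19 replicate 1 was the highest of the 4 and replicate 2 the lowest. Pttg1, which encodes securin, had table values of 0.33 and 0.25 against -0.25 and -0.31, a difference of -0.56 (SE 0.060) that missed the call with an adjusted p of 0.0105. Its scanner values were 3.89 and 3.99 for EV-50, and 4.02 and 3.25 for shGR-19. The differences for Ube2c, the ubiquitin-conjugating enzyme of the complex, and for Cdc20, its activator in mitosis, were -0.19 (adjusted p = 0.0685) and 0.14 (adjusted p = 0.14). Cdc20 had the highest difference of the 42 in the table and was 0.052 higher between the scanner arrays labelled replicate 2.

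**Figure D2:**
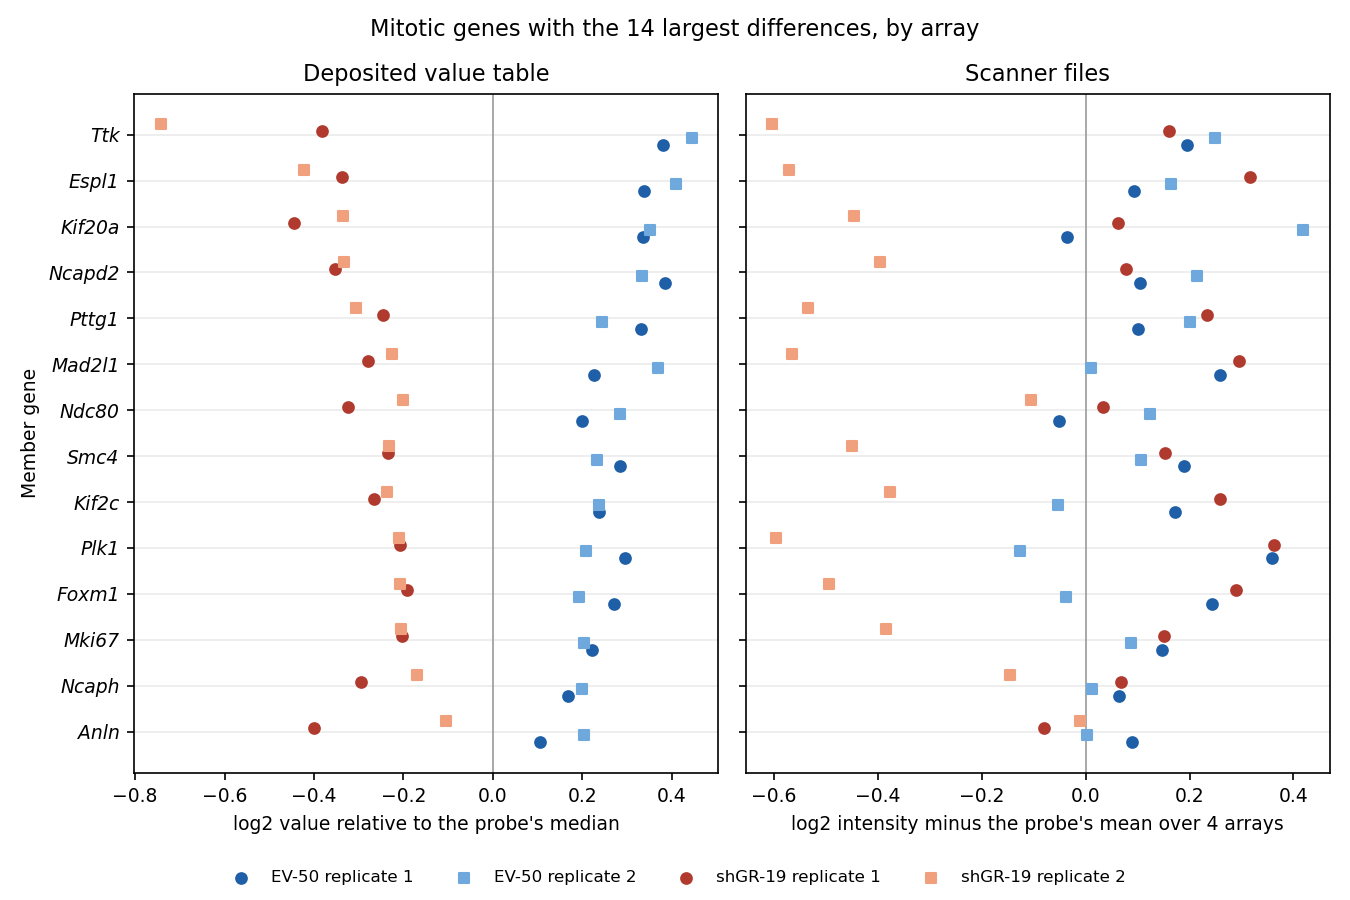
Values of the 14 mitotic genes with the largest value table differences, on each of the 4 arrays: left, the deposited log2 value relative to the median of the probe; right, the scanner log2 intensity minus the mean of the probe over the arrays. The genes were chosen for their separation in the left panel, where the lines do not overlap; in the right panel the array labelled shGR-19 replicate 2 is the lowest for all but Anln.

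Of the 8 centromere and kinetochore genes, none was called and 4 passed an adjusted p of 0.05, with a median table difference of -0.18. Ndc80 encodes a subunit of the NDC80 complex, which binds microtubules at the outer kinetochore. Its table values were 0.20 and 0.28 for EV-50 and -0.32 and -0.20 for shGR-19, which do not overlap, with a difference of -0.50 (SE 0.072, adjusted p = 0.0179). The scanner values of 0.71 and 0.88 for EV-50, and of 0.79 and 0.66 for shGR-19, lay closer together than those of Espl1 or Plk1. The 4 subunits of the complex did not give like values, since Spc25 and Nuf2 had table differences of -0.29 and -0.28 and Spc24 had 0.067 (adjusted p = 0.383). Cenpf and Cenpe, which encode large proteins of the outer kinetochore, the second a motor, had -0.24 and -0.12. Cenpa, the histone H3 variant that marks the centromere, and Birc5, which encodes survivin of the chromosomal passenger complex, had 0.046 and -0.053, both smaller than their SE.

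Among the 9 genes for motors and spindle microtubule proteins, 2 were called and 5 passed an adjusted p of 0.05. Kif20a, whose kinesin brings regulators to the central spindle, had table values of 0.33 and 0.35 for EV-50 and of -0.44 and -0.33 for shGR-19. It was 1.66-fold lower in shGR-19, a difference of -0.73 (SE 0.062, adjusted p = 0.00733). On the scanner arrays it read 4.98 and 5.43 for EV-50, and 5.08 and 4.57 for shGR-19. The arrays labelled EV-50 lay 0.45 apart, with the array labelled shGR-19 replicate 1 between them. Kif2c, the kinesin that takes microtubules apart at centromeres, had table values of 0.24 and 0.24 against -0.27 and -0.24, a difference of -0.49 (SE 0.047, adjusted p = 0.00875). The scanner arrays read 1.14 and 0.91 for EV-50, and 1.23 and 0.59 for shGR-19. Kif4, a chromosome-bound kinesin, its midzone partner Prc1, and Kif23, a centralspindlin kinesin, had table differences of -0.39, -0.37 and -0.30, each with an adjusted p between 0.0143 and 0.0229. Hmmr and Tpx2, which act in spindle assembly, had -0.27 and -0.17 and did not pass 0.05. Kif11, the motor that pushes spindle poles apart, had 0.012 and Nusap1, a microtubule bundling protein gene, -0.083, neither of which passed 0.05.

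The condensin and topoisomerase genes were all 6 lower in mean table value, against 49% of all probes. Of these 6, 2 were called, against 11.6% of all probes. An adjusted p of 0.05 was passed by 5, against 18.2% lower and 18.3% higher among all probes. Condensin compacts chromosomes through the SMC2 and SMC4 ATPases and the regulatory subunits of condensin I, here Ncapd2, Ncapg and Ncaph. Ncapd2 had table values of 0.39 and 0.33 for EV-50 and of -0.35 and -0.33 for shGR-19. It was 1.63-fold lower in shGR-19, a difference of -0.70 (SE 0.050, adjusted p = 0.00577). Its scanner values were 4.83 and 4.94 for EV-50, and 4.81 and 4.33 for shGR-19. Smc4 had table values of 0.28 and 0.23 against -0.23 and -0.23, a difference of -0.49 (SE 0.049, adjusted p = 0.00944), 1.41-fold lower. On the scanner arrays Smc4 read 4.13 and 4.05, then 4.10 and 3.49, with shGR-19 replicate 2 alone apart. For Ncaph the table values were 0.17 and 0.20 for EV-50, and -0.30 and -0.17 for shGR-19, a difference of -0.42 (SE 0.067, adjusted p = 0.0219). Its scanner values were 1.68, 1.62, 1.68 and 1.47 in the same order, a narrow range. Ncapg and Smc2 had table differences of -0.36 and -0.30, so that each of the 5 condensin genes passed 0.05. Top2a, the topoisomerase that untangles sister chromatids, had -0.28 with an SE of 0.11 (adjusted p = 0.125).

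Of the 2 cytokinesis genes, Anln, which encodes the actin-binding anillin of the cleavage furrow, had table values of 0.10 and 0.20 for EV-50 and of -0.40 and -0.10 for shGR-19. The difference of -0.41 had an SE of 0.13 and did not pass (adjusted p = 0.0842). Scanner values of Anln were 1.16 and 1.07 for EV-50, and 0.99 and 1.06 for shGR-19, and here the lowest array was shGR-19 replicate 1. Ect2, which is needed for furrow formation, had a table difference of 0.017. Foxm1 encodes a transcription factor that activates many G2 and M phase genes, and Mki67 the proliferation antigen Ki-67, which coats mitotic chromosomes. Foxm1 had table values of 0.27 and 0.19 against -0.19 and -0.21, a difference of -0.43 (SE 0.055, adjusted p = 0.0141). Its scanner values were 3.35 and 3.07 for EV-50, and 3.39 and 2.61 for shGR-19. Mki67 had table values of 0.22 and 0.20 against -0.20 and -0.21, a difference of -0.42 (SE 0.046, adjusted p = 0.0110). For Mki67 the scanner arrays read 4.42 and 4.36, then 4.43 and 3.89. Both thus lay apart by line in the table and by the array labelled shGR-19 replicate 2 in the scanner files.

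**Figure D3:**
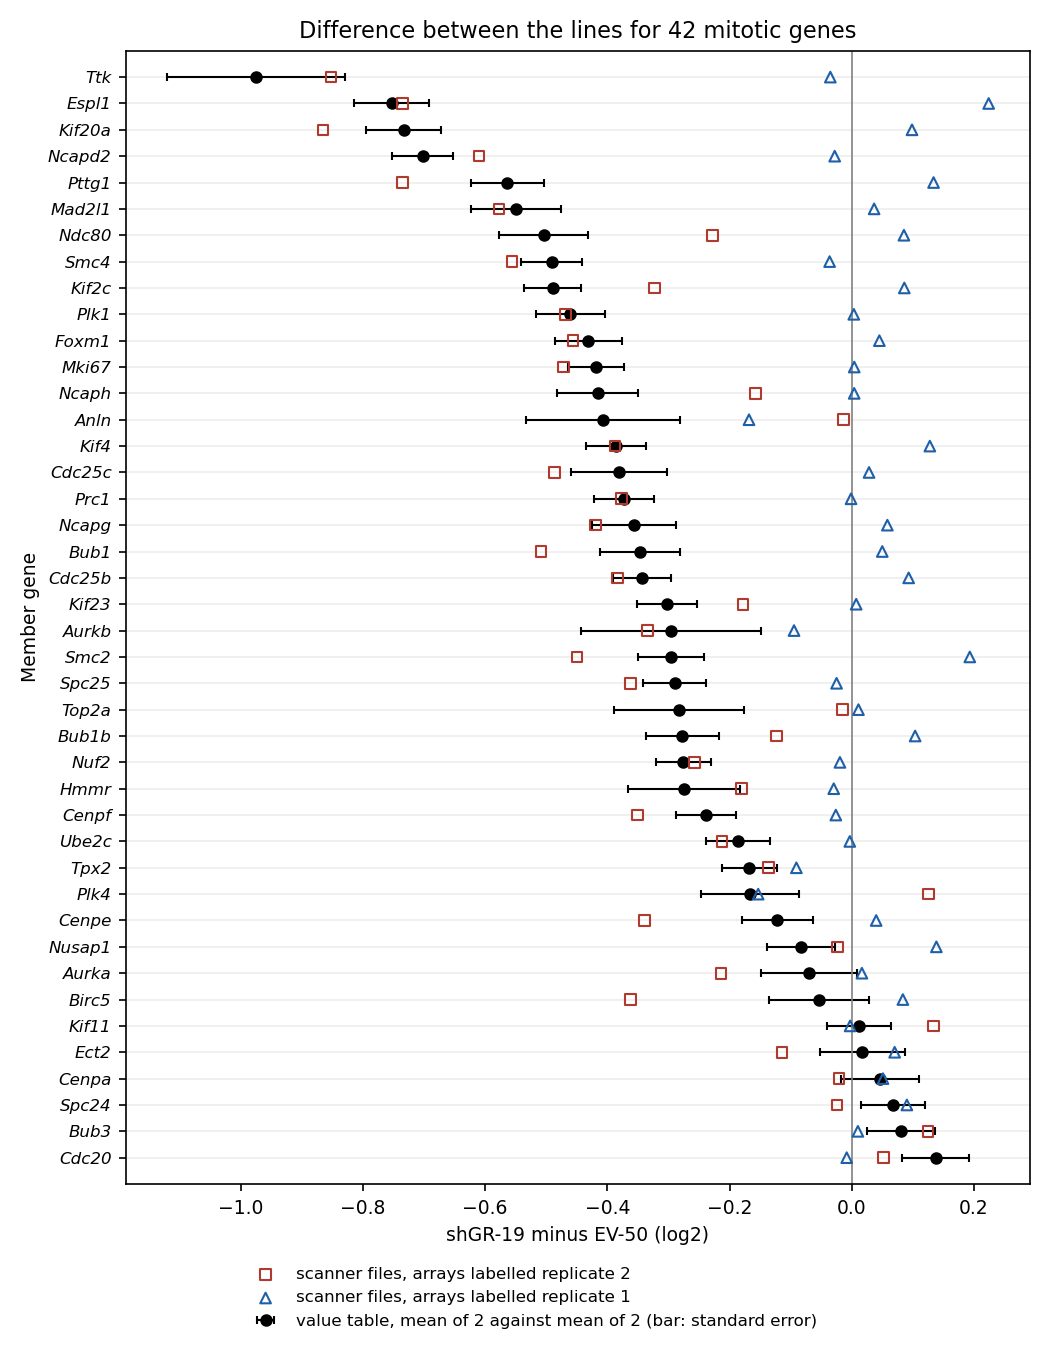
Difference between the lines on the log2 scale for each of the 42 mitotic genes: black points, value table with the standard error from limma; red squares, scanner arrays labelled replicate 2; blue triangles, scanner arrays labelled replicate 1. The black points run from -0.97 for Ttk to 0.14 for Cdc20, the red squares follow them for most genes, and the blue triangles lie between -0.17 and 0.22.

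The order of the genes by difference was that of the table alone, and genes next to each other in it lay within the larger of their standard errors, apart from the steps after Ttk, after Ncapd2 and before Cdc20. The first 14 genes, those with every value given above, end with Anln at -0.41, and the next was Kif4 at -0.39. In 35 of the 42 the difference was below 0 both in the table and between the scanner arrays labelled replicate 2, and in 3 it was above 0 in both. Both sets of values were deposited for the same arrays, so a shared sign is no separate support, and its share over all probes is not given. There were 8 genes within 0.1 of 0 in the table, from 5 of the 8 roles.

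Other probes of the same genes gave a check that the choice of the brightest probe did not use. Of the 42 genes, 21 had more than 1 kept probe, and in 19 of these all probes had the same sign in the table. Bub1 was an exception, with -0.35 for the brightest probe at chr2:127626988-127627047 (mm9) and 0.096 for its other probe at chr2:127626326-127626385. Nusap1 was the other, with -0.083 and 0.022. Between the scanner arrays labelled replicate 2, all probes had the same sign in 17 of the 21, the exceptions being Bub1, Bub3, Cenpf and Plk4. The 3 Ncapd2 probes had -0.70, -0.80 and -1.12, and the last of these, at chr6:125126025-125126084 (mm9), had an adjusted p of 0.00353 and passed 2-fold. A second probe of Mki67 had -0.68, one of Top2a -0.65, and one of Kif20a, which overlaps the first, -0.76. The kept probes ran from -0.43 to -0.12 for Cenpe, from -0.67 to -0.38 for Cdc25c and from -0.58 to -0.36 for Ncapg. In each of these genes the brightest probe was the least low. Those of Bub3 ran from 0.020 to 0.23. Second probes of other genes were less low than the brightest, with -0.27 for Anln, -0.23 for Hmmr and -0.088 for Cenpf, and that of Ect2 had 0.18. The share of all genes whose probes had the same sign is not given.

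The position of a gene was compared with the value table differences of the genes within 1 Mb of it on mm9, since each line is a clone. For 40 of the 42 genes at least 5 kept genes lay in this window. The median over the 40 of their neighbours' median difference was 0.011, against 0.031 for 15503 genes treated alike, and 36 of the 40 mitotic genes lay below their own neighbours, as did 50.1% of the 15503. Across the 40, the difference of the gene had a Pearson correlation of 0.47 and a Spearman correlation of 0.42 with that of its neighbours, given as a description since genes in a window share a stretch of chromosome. The gap between gene and neighbours had a median of -0.36 and a range from -0.85 for Ttk to 0.11. Between the scanner arrays labelled replicate 2, 36 of the 40 also lay below their neighbours, against 49.9%, with a median gap of -0.30. Kif20a, Cdc25c and Ncapd2 lay among genes that were themselves low: 21 genes around Kif20a had a median of -0.37, a value as low as in 3.2% of all windows, and 46 genes around Ncapd2 had -0.34, as low as in 4.33%. Kif20a and Cdc25c share their stretch of chromosome 18. Cdc25c differed from its neighbours by -0.025, whereas Kif20a and Ncapd2 were each 0.36 below theirs.

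**Figure D4:**
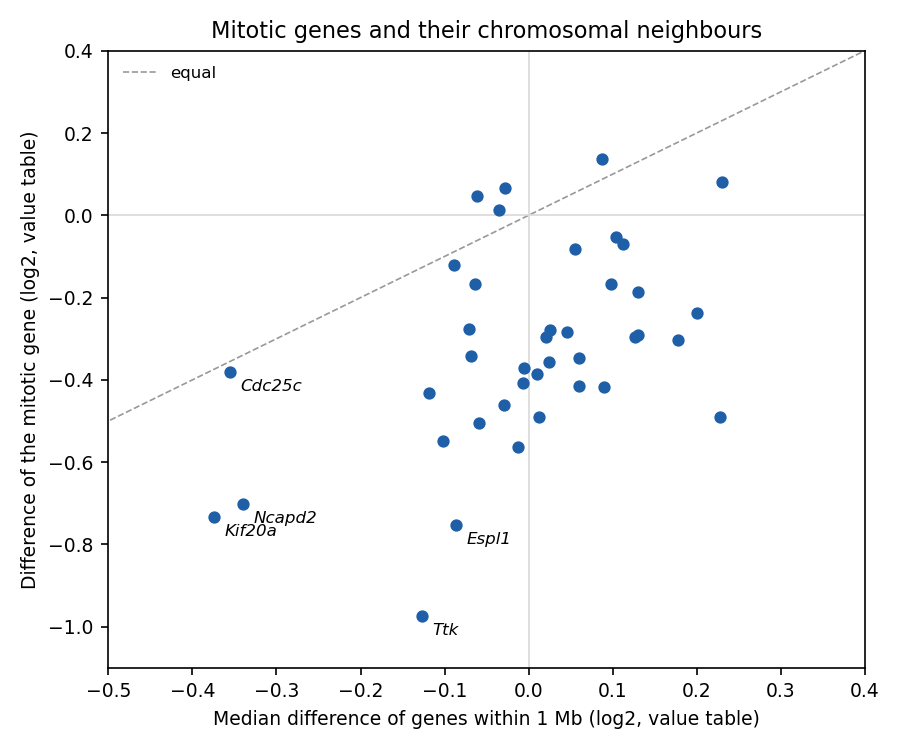
Value table difference (shGR-19 minus EV-50, log2) of each of 40 mitotic genes against the median difference of the genes within 1 Mb of it; the dashed line marks equal values. There are 36 points below the line, and Kif20a, Cdc25c and Ncapd2 lie to the left with neighbour medians from -0.37 to -0.34.

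Wider lists gave the setting for these values. Of 101 other mitotic genes with a kept probe, 17 were called lower and 1 higher in the table, or 16.8% lower against 6.04% of all probes, with a median difference of -0.22. Kif15, a spindle kinesin, was called lower by more than 2-fold, at -1.52 (SE 0.069, adjusted p = 0.00351), with scanner values of -0.80 and -0.56 for EV-50, then -0.50 and -2.25 for shGR-19. Of 46 DNA replication genes, 13 (28.3%) were called lower and 0 higher, with a median of -0.31. Orc1l, a subunit of the origin recognition complex, was called lower by more than 2-fold (-1.13, SE 0.10, adjusted p = 0.00802). The chromosomal neighbours of Kif15 and Orc1l are not given, and whether their differences follow their region was not tested. Of 12 reference genes 0 were called in either direction by limma, while 9 of the 12 had an unadjusted p below 0.05, against 48.4% of all probes, and 5 of these were lower, against 23.8%. Their median difference was -0.054. As with the 42 genes, the scanner fit called 0 genes of each of these lists. Between the scanner arrays labelled replicate 2, their medians were -0.20 for the other mitotic genes, -0.35 for the DNA replication genes and -0.020 for the reference genes.

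The genes with and without the promoter motifs are compared here only by their medians. The median table difference was -0.30 for the 25 genes with TTTGAA in the window and -0.31 for the 10 without it. For CCAAT it was -0.29 with and -0.41 without. Between the scanner arrays labelled replicate 2 these medians were -0.23 with and -0.35 without TTTGAA, and -0.35 with and -0.24 without CCAAT, so that the order for CCAAT turned. Kif11 and Cdc20, whose windows with both motifs are printed above, had table differences of 0.012 and 0.14, while Ttk and Espl1 with the same motifs had -0.97 and -0.75.

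Markers of another cell type differed between the lines in the table, and in the scanner files mainly between the replicate 2 arrays. The summed scanner level of the 7 mesenchymal markers, on a linear scale where 1 is the 75th percentile of the array, was 2.07 and 6.56 for EV-50, and 1.97 and 49.9 for shGR-19. This sum followed mainly Col1a2 and Pdgfrb, whose log2 scanner values on shGR-19 replicate 2 were 4.93 and 3.94, while Vim read -3.11 there. Col1a1, Col3a1 and Thy1 were not well above background on both arrays of either line, and Thy1 was so on EV-50 replicate 1 alone. In the table Col1a2, Pdgfrb, Vim and Pdgfra were called higher in shGR-19 by more than 2-fold, with differences of 3.27, 2.03, 1.82 and 1.16, and the Pdgfra probe was well above background on only 1 of the 2 EV-50 arrays. The scanner fit called 0 of these 4, and both shGR-19 arrays lay above both EV-50 arrays for 1 of them. Krt14, a basal keratin, was called lower at -1.13, and the summed level of the 6 epithelial markers ranged from 574 to 688 over the arrays. The sums of immune markers lay between 0.64 and 0.75, and those of endothelial and fat cell markers between 0.063 and 0.079. The part of these marker differences in those of the mitotic genes was not tested.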

How the data were processed

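The authors deposited, per array, the scanner output of Agilent Feature Extraction 10.5.1.1, whose background-subtracted intensity values were not scaled between arrays, and log2 values from GeneSpring in which every probe's median over the 4 columns is 0. The scale and direction of the table were read from the scanner files. Only the pair labelled replicate 2 bears on the direction, with a correlation of 0.80 with its columns, against 0.039 for the replicate 1 pair. Control spots and outlier spots (74 to 139 per array) were dropped, and repeated spots were averaged. The 75th percentile of the signal was 516 to 584, no spot was saturated, and 23290 to 27358 spots per array were well above background. The number of arrays limits the precision. A probe was kept if either line had it well above background on its 2 arrays (24443 of 41174). limma 3.58.1 (R 4.3.3, lmFit and eBayes) compared the lines, with Benjamini-Hochberg adjustment over the kept probes and calls at an adjusted p below 0.01; 2 probes could not be fitted on the scanner values. In the table, the median of each column over the kept probes was between -0.015 and 0.0080.

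Groups and replicate numbers are those of the labels. All 4 arrays were on 1 slide, so no batch was fitted. An exact permutation test of 2 arrays against 2 cannot go below p = 0.333 and was not used. The genes, the lists and the tests were chosen with earlier results of these data known. Values on every array are given for the 14 genes with the largest table difference. Genes of the other mitotic, DNA replication and marker lists are named where called by more than 2-fold, and Nr3c1 as the target. The comparison with chromosomal neighbours, and the counts between the replicate 2 arrays for probes, motifs and neighbours, were added after seeing the data. Data were simulated for shGR-19 against EV-50 with the spread of the value table, over 24443 probes. Of 100 probes changed by 1 on the log2 scale 0 were called, and of 100 changed by 2, 50, with 1 false call. With the spread of the scanner files these counts were 0 and 0. No other probes were changed, whereas 11.6% of all probes were called in the value table itself. The adjustment was therefore stricter in the simulation, and its counts do not give the size of difference that could be called in the data. Python 3.11.15, pandas 2.3.3 and numpy 2.4.6 were used for the counts. Promoter windows are from RefSeq.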

Additional observations from a re-analysis of the deposited data

How the results depend on the processing

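Over the 14 named genes and the alternatives in the value table, 35 calls were lost and 16 gained. The genes were chosen for their separation in that table, so that their direction could not turn there with a column left out and says nothing about stability. The count of 5 genes called became 0 with all probes kept, 0 with a plain equal-variance test, 0 with the replicate block and 0 with any 1 array left out. It became 15 when a probe had to be well above background on each of the 4 arrays, and 26 with an intensity trend and robust prior. The count was 25 with an adjusted p below 0.05 and 22 with an unadjusted p below 0.01. For the 15, 26 and 22 the share of all probes called is not given, so they cannot be read as particular to the mitotic genes. The median stayed between -0.33 and -0.29 with an array left out (-0.33 without EV-50 replicate 1 and -0.33 without shGR-19 replicate 2). Nr3c1 kept its table difference of -1.94 but lost its call with all probes kept (adjusted p = 0.0113), the plain test (0.0201) and the replicate block (0.0294), and with an array left out it lay between -1.95 and -1.92.

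In the scanner files the count called was 0 under every alternative there, and is 5 when the value table takes their place. The median of -0.13 was -0.34 with the arrays labelled replicate 2 only, and ranged from -0.38 to 0.073 with an array left out, the lowest being without shGR-19 replicate 1 and the highest without shGR-19 replicate 2. Nr3c1 was -1.95 with the replicate 2 arrays only and from -1.90 to -0.40 with an array left out. Of 196 scanner values of the named genes 11 reversed. With an array left out, the ranges were -0.70 to 0.19 for Espl1, -0.69 to 0.084 for Pttg1, -0.70 to 0.16 for Mad2l1, -0.60 to 0.0053 for Smc4, -0.44 to 0.20 for Kif2c, -0.71 to 0.25 for Plk1, -0.60 to 0.19 for Foxm1, -0.50 to 0.034 for Mki67 and -0.18 to 0.030 for Ncaph, each highest without shGR-19 replicate 2. Ndc80 ranged from -0.16 to 0.017, the highest without EV-50 replicate 2, and Plk1 was also above 0, at 0.011, without EV-50 replicate 1. The cause was not tested.

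Replicate numbers are not stated to mark a shared batch, so the block is given only here. The pairing correlation was 0.71 on the scanner values and 0.43 in the table, and with 2 arrays per line both numbers give the same value. Scaling by normexp, quantiles or detected probes moved the median of all probes to between -0.0057 and 0.032.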
